A study of Mus musculus with 2 samples.

Results

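The vesicular glutamate transporters are the 3 genes Slc17a6, Slc17a7 and Slc17a8, which code for VGLUT2, VGLUT1 and VGLUT3. They were chosen by name, as the members of the SLC17 family that load glutamate into synaptic vesicles, and are 3 of the 25556 genes counted. Brainstem nuclei of 1 WT and 1 HET mouse, both female and at postnatal day 41, were profiled by single-nucleus RNA-seq, in which RNA molecules are counted by their barcodes, the unique molecular identifiers (UMIs). The HET animal carried the Scn1aA1783V missense allele on 1 chromosome, a loss-of-function change of the sodium channel Nav1.1 used as a model of Dravet syndrome, and WT mice were littermates on the same C57Bl6 background. The knock-in allele had been switched on in the whole body by Cre under the Sox2 promoter, so no cell type was singled out. These counts cannot read the allele, and the genotype labels were therefore not checked. Each genotype is 1 library, so genotypes could not be compared by a test. Intervals are exact, at 95%, and cover counting error only.

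Neurons that release glutamate need a vesicular transporter, which uses the proton gradient of the vesicle to concentrate glutamate from the cytosol. In the adult brain, Slc17a6 is the usual transporter of the thalamus, hypothalamus and brainstem, and Slc17a7 that of cerebral cortex, hippocampus and cerebellar granule cells. Slc17a8 is found in scattered neurons that often release a second transmitter, among them serotonergic neurons of the raphe nuclei. Slc17a6 and Slc17a7 mark excitatory neurons in most atlases, whereas Slc32a1, Gad1, Gad2 and Slc6a5 mark neurons that release GABA or glycine.

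Slc17a6 (ENSMUSG00000030500) lies at chr7:51622006-51671119 on the plus strand of mm10 (GRCm38), spans 49114 bases and is 89.0% intron. Slc17a7 (ENSMUSG00000070570) lies on the same chromosome at chr7:45163949-45176142, also on the plus strand, spans 12194 bases and is 55.8% intron. Slc17a8 (ENSMUSG00000019935) lies at chr10:89574020-89621253 on the minus strand and spans 47234 bases. No gene that overlaps them was counted, so their UMIs are not shared with a neighbour. A nuclear library also captures unspliced RNA from introns, and UMIs are not divided by gene length. Each gene is therefore compared across clusters. Where the 3 genes are set beside each other, the values are counts as captured and do not rank their RNA levels.

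The 250 bases upstream of the RefSeq start of each gene are printed here because Neurod2, a basic helix-loop-helix factor that binds E-boxes, was among the genes whose pattern was most like that of Slc17a7. Each sequence is read 5′ to 3′ on the strand of the gene, from GRCm38.p6, and capitals mark the E-box motif CANNTG on either strand.
Slc17a6, chr7:51621580-51621829, plus strand: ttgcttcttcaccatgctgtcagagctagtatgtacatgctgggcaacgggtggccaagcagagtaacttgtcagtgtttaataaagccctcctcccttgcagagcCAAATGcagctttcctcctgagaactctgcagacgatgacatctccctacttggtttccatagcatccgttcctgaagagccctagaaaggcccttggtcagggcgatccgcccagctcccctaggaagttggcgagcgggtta
Slc17a7, chr7:45163671-45163920, plus strand: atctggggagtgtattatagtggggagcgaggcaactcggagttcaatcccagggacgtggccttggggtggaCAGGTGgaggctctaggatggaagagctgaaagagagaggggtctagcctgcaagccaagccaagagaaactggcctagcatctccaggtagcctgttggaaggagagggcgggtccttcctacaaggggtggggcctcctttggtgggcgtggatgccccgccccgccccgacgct
Slc17a8, chr10:89621250-89621499, minus strand: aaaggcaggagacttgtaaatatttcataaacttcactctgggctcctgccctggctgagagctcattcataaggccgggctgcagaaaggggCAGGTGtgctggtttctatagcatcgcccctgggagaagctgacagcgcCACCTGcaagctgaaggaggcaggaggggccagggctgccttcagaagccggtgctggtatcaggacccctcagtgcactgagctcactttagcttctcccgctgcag
The Slc17a6 window held 1 E-box, the Slc17a7 window 1 and the Slc17a8 window 2. The E-boxes of Slc17a7 and Slc17a8 had the letters CAGNTG on 1 strand, in each case CAGGTG, and that of Slc17a6 did not. Whether Neurod2 binds these sites was not tested. Of the 32851 RefSeq windows of this length, 66.2% held a CANNTG and 44.8% a CAGNTG, so a match is common. GC content was 53.2%, 61.2% and 57.2% in the same order.

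The WT library held 70301390 UMIs in 9259 nuclei and the HET library 66176778 UMIs in 9022 nuclei, with 23 cell barcodes found in both. The deposited clusters number 16, of which 9 are named as neurons, and a finer deposited grouping holds 34 subclusters. Neuronal clusters held 66.1% of WT nuclei, with a median of 7729 UMIs, and 59.8% of HET nuclei, with a median of 8390 UMIs. Rbfox3, a marker of neurons, was at 222 CPM, UMIs per 1000000 UMIs of the unit, in the neuronal clusters of WT and at 15.5 CPM in WT nuclei that both the cluster and the reference label call non-neuronal. The corresponding HET values were 296 and 36.9 CPM. The name of cluster micro goes against part of its nuclei: the reference label calls each of its 185 nuclei in subcluster 18 a neuron. Microglial markers summed to 149 CPM in subcluster 18 and to 1883 CPM in subcluster 20, so subcluster 18 is named by its number here. Some units came mostly from 1 library. Among neurons they include subcluster 15, with 33 WT and 249 HET nuclei, subcluster 27, with 14 and 100, and subcluster 22, with 121 and 5, and among oligodendrocytes subcluster 6, with 39 and 827, subcluster 7, with 133 and 730, and subcluster 8, with 825 and 35.

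Slc17a6 was the most widely detected of the 3 genes. At least 1 UMI was found in 38.1% of neuronal nuclei in WT and 40.4% in HET. In the agreed non-neuronal nuclei, which should lack the gene, the share was 13.2% of 2546 nuclei in WT and 12.2% of 3190 in HET, at lower median depths of 2738 and 2909 UMIs. When each nucleus was thinned to 1000 UMIs, the shares were 7.73% and 8.16% in neurons against 4.96% and 4.28% in the non-neuronal nuclei. A single UMI therefore separates the 2 kinds of nuclei poorly. With at least 3 UMIs, the shares were 8.30% and 10.8% of neuronal nuclei against 0.0393% and 0.0940% of non-neuronal nuclei.

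The level of Slc17a6 ranged widely among neuronal clusters. It was highest in neuron.2, at 148 CPM in WT and 173 CPM in HET. Neuron.6 followed in WT at 118 CPM, and it held 5 HET nuclei only. Neuron.1, which holds most neurons, was at 71.1 and 83.8 CPM, neuron.3 at 55.3 and 77.2 CPM, neuron.5 at 44.5 and 55.6 CPM, and neuron.4 at 41.0 and 65.2 CPM. The lowest levels were in neuron.7, at 19.7 and 18 CPM, and in neuron.8, at 3.08 CPM in WT. Neuron.9 held 8 UMIs in 35 WT nuclei, or 94.4 CPM with an interval of 40.7 to 186. Of the glial and vascular clusters, oligo was at 41.4 and 40.6 CPM, astro at 45.4 and 38.4 CPM, endo at 63.6 and 58.1 CPM and fibro at 56.6 and 52.5 CPM. Epend.1 was at 49.4 and 88.1 CPM, and epend.2 at 22.7 CPM in WT. Cluster micro was at 90.5 and 136 CPM, of which 84 of 100 WT and 176 of 192 HET UMIs came from subcluster 18. In this order, 12 of 15 neighbouring pairs overlapped in their counting intervals in WT, the breaks being after neuron.2, micro and neuron.7, and 11 of 11 overlapped in HET.

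Per nucleus, the same clusters split more sharply, because glia hold fewer UMIs in all. Slc17a6 gave 0.713 UMIs per neuronal nucleus in WT and 0.823 in HET. It gave 0.138 and 0.134 in agreed oligodendrocytes and 0.152 and 0.139 in agreed astrocytes. The values in glia, which should lack the gene, are used here as a reference, and how much of them is background was not tested. Subcluster 9, with 0.144 and 0.190 UMIs per nucleus, and subcluster 24, with 0.110 and 0.0870, were at about the glial value, and so was the cholinergic neuron.8, with 0.0909 in WT. Subclusters 9 and 24 had the second highest and the highest summed level of the 4 inhibitory markers among the 34, at 402 and 497 CPM. After thinning, 2.32% and 2.16% of subcluster 9 nuclei held a Slc17a6 UMI, which is below the non-neuronal share. How much of the level in these units is background was not tested.

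**Figure D1:**
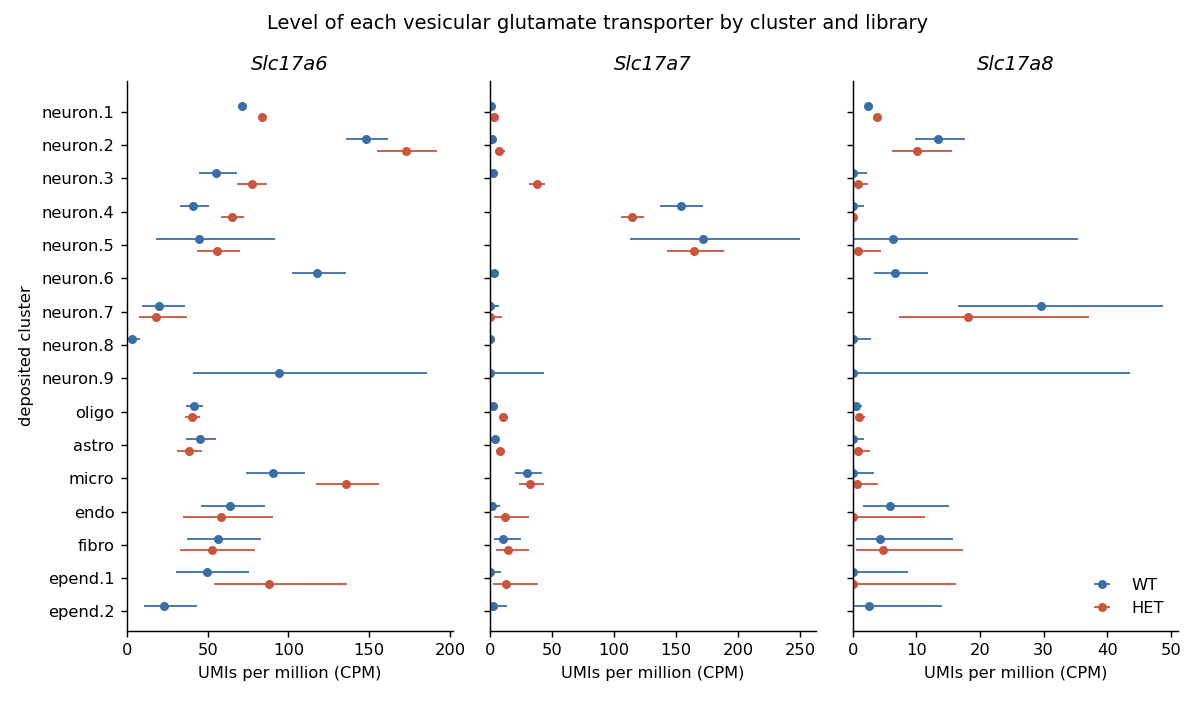
Level of each vesicular glutamate transporter gene in CPM (horizontal axis) in each deposited cluster (vertical axis), with WT and HET libraries side by side and exact 95% Poisson intervals as bars. Slc17a6 is spread over most clusters with its highest level in neuron.2, Slc17a7 stands out in neuron.5 and neuron.4, and Slc17a8 in neuron.7 and neuron.2.

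In the finer grouping, the highest levels among subclusters with at least 30 WT nuclei were in subcluster 14, at 163 CPM in WT and 190 CPM in HET, subcluster 18, at 132 and 199 CPM, subcluster 12, at 129 and 157 CPM, subcluster 0, at 127 and 124 CPM, and subcluster 22, at 118 CPM in WT. Subcluster 12 had the highest Tlx3 and the second highest Lmx1b of the 34, which are transcription factors of a dorsal hindbrain excitatory lineage. Subcluster 18 ranked second for Tlx3 and after subclusters 30 and 12 for Lmx1b, and first for Lhx2, whereas Lhx9, Barhl1, Barhl2 and Atoh1 were at 0 there. Subcluster 22, which is neuron.6, had the highest Foxp2, Calb1 and Htr5b, the markers listed for the inferior olive. The 4 inhibitory markers Slc32a1, Gad1, Gad2 and Slc6a5 summed to 47.6 CPM in subcluster 14, 40.8 in subcluster 18, 69.7 in subcluster 12, 137 in subcluster 0 and 31.6 in subcluster 22. They summed to 400 CPM in subcluster 13, where Slc17a6 was at 44.9 and 46.0 CPM. Subcluster 0 alone made up 25.6% of neuron.1 nuclei in WT and 38.6% in HET, and it held 40.6% and 50.3% of the Slc17a6 UMIs of neuron.1.

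Slc17a7 was found in few neurons, and most of its UMIs lay in a few subclusters. Over the neuronal clusters, 2.93% of WT and 11.4% of HET nuclei held a UMI, against 0.746% and 3.23% of agreed non-neuronal nuclei. Neuron.5 had the highest level, at 172 CPM in WT from 27 UMIs and at 164 CPM in HET from 210 UMIs. Neuron.4 was next, at 154 CPM in WT from 311 UMIs and at 114 CPM in HET from 588 UMIs. These clusters stood well above the others in WT, where cluster micro was at 29.9 CPM, nearly all of it from subcluster 18 at 47.1 CPM, and the next cluster was fibro at 10.9 CPM. In HET, neuron.3 followed at 37.8 CPM and then cluster micro at 32.5 CPM. Neuron.1 was at 1.26 and 3.52 CPM, neuron.2 at 1.67 and 7.05 CPM, oligo at 2.91 and 10.5 CPM, astro at 3.78 and 8.07 CPM, and fibro at 10.9 and 14.3 CPM. Endo and epend.1 held at most 4 UMIs in a library. Neuron.6 was at 2.99 CPM and epend.2 at 2.52 CPM in WT. No UMI was found in neuron.7, neuron.8 or neuron.9 in either library, where in WT a count of 0 allows up to 5.91, 2.31 and 35.4 CPM. Only the step below neuron.4 separated neighbours beyond their intervals in WT, and in HET the steps below neuron.5 and neuron.4 did.

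The subclusters behind these levels can be described by their markers. Subcluster 15, the larger part of neuron.5, was at 190 CPM in WT and 183 CPM in HET. It ranked first of the 34 for Gabra6, Fat2, Cbln3 and Neurod1, markers of cerebellar granule cells, with 459 CPM of Gabra6. Subcluster 33, also in neuron.5, held 218 CPM in 37 HET nuclei and a single UMI in 6 WT nuclei, and it ranked first for Lmx1a and Eomes, which mark unipolar brush cells. The third listed marker of those cells, Otx2, was at 0 in it, and it ranked second for the granule cell markers Fat2, Neurod1 and Cbln1. Subcluster 11, which is neuron.4, ranked second for Nfib, at 757 CPM, and after subclusters 33 and 15 for Neurod2, at 21.8 CPM. Subcluster 27, part of neuron.3, held 97.1 CPM in 100 HET nuclei. Its 14 WT nuclei held 3 UMIs, all in 1 nucleus. Subcluster 21, a mixed group of which 49 of 126 nuclei are in neuron.5, held 33 UMIs in 70 HET nuclei and 1 UMI in 56 WT nuclei. Subclusters 11, 15, 27 and 33 together held 82.1% of the Slc17a7 UMIs of neuronal clusters in WT and 81.6% in HET. Granule cells and unipolar brush cells are known from the cerebellum and the cochlear nuclei, and where the tissue was cut was not tested.

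In neuron.1, which holds most neurons, Slc17a7 was no more frequent than in glia at equal depth. The cluster held 0.0121 UMIs per nucleus in WT and 0.0351 in HET, and oligo, which should lack the gene, held 0.00962 and 0.0348. After thinning, 0.166% and 0.426% of neuron.1 nuclei held a UMI, against 0.259% and 1.05% of agreed non-neuronal nuclei. Thinning dilutes a background that is fixed per droplet more in deeper nuclei, so these shares cannot place neuron.1 at background. The share of Slc17a7 in the summed UMIs of Slc17a6 and Slc17a7 does not rest on depth. It was 8.66% in neuronal clusters and 6.56% in agreed oligodendrocytes of WT, with an interval of 3.87 to 10.3 for the latter, and 19.7% and 20.1% in HET, with an interval of 16.3 to 24.4. By contrast it was 1.75% and 4.03% in neuron.1, 78.9% and 63.7% in neuron.4, and 79.4% and 74.7% in neuron.5. The share over the whole library, 8.90% in WT and 19.7% in HET, lay inside the intervals of the oligodendrocytes, under the shares of neuron.4 and neuron.5 and above that of neuron.1. Over all agreed non-neuronal nuclei the share was 5.84% (3.74 to 8.63) in WT, an interval that lies below the whole-library share. In HET it was 19.9% (16.5 to 23.5), an interval that holds it.

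**Figure D2:**
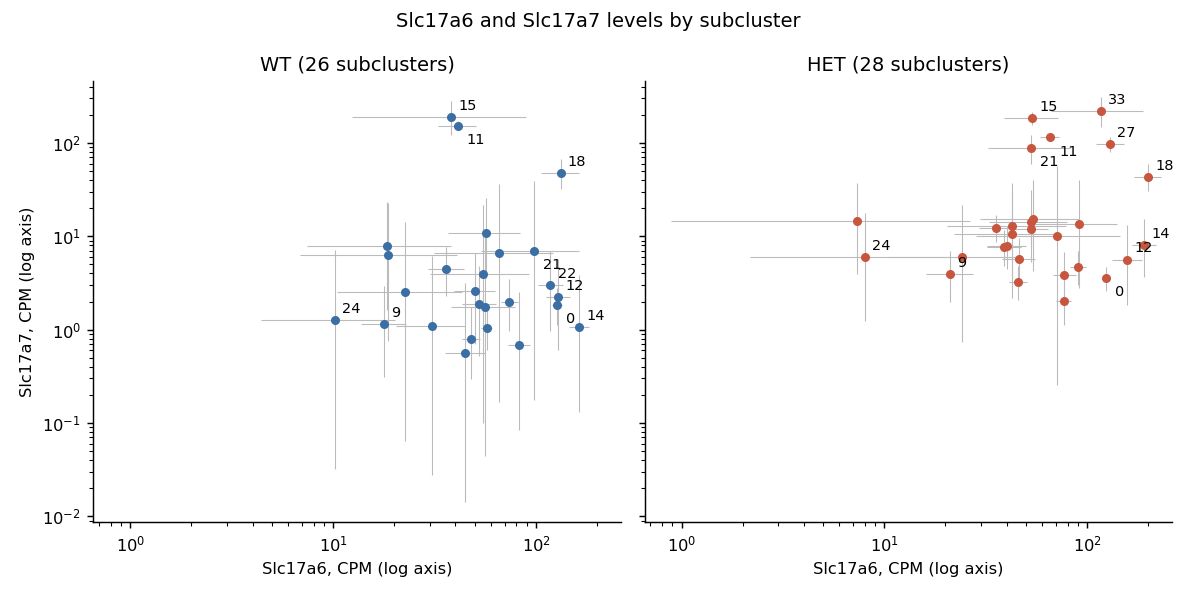
Slc17a7 level against Slc17a6 level, both in CPM on log axes, with 1 point per deposited subcluster that reached 30 nuclei in the library and held UMIs of both genes, and exact 95% intervals as lines. Subclusters 11 and 15 lie high on the Slc17a7 axis in both libraries and 21, 27 and 33 in HET, and most others form a band at low Slc17a7 that lies higher in HET.

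Slc17a8 was the rarest of the 3, with 204 UMIs in WT and 198 in HET. It was detected in 2.35% of neuronal nuclei in WT and 2.11% in HET, against 0.196% and 0.313% of agreed non-neuronal nuclei. Neuron.7 had the highest level, at 29.5 CPM from 15 UMIs in WT and 18 CPM from 7 UMIs in HET. This cluster is subcluster 30, which ranked first for Tph2, Slc6a4, Slc18a2 and Fev, the synthesis, reuptake, vesicle loading and master regulator genes of serotonergic neurons. Neuron.2 was next, at 13.4 and 10.1 CPM, and within it subcluster 14 held 43 and 18 UMIs, or 23.0 and 16.1 CPM. Neuron.1 was at 2.46 and 3.79 CPM and neuron.6 at 6.58 CPM in WT. Oligo was at 0.513 and 1.01 CPM. Neuron.4 held no UMI, where a count of 0 allows up to 1.48 CPM in WT and 0.584 CPM in HET. Every other cluster held at most 4 UMIs in a library. Of the neighbouring clusters in this order, 14 of 15 pairs overlapped in WT and 10 of 11 in HET, with the only break after neuron.1.

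Most nuclei with Slc17a8 held 1 UMI, and 29 neuronal nuclei held at least 3, 9 in WT and 20 in HET. Of these 29, 24 were in neuron.1, 16 of them in subcluster 0, 3 were in neuron.2 and 2 in neuron.7. Slc17a6 was found in 11 of them and an inhibitory marker in 14, and 7 held neither. All 6 nuclei with at least 5 Slc17a8 UMIs were in subcluster 0, 1 in WT and 5 in HET. The highest count was 5 UMIs in WT and 7 in HET. No non-neuronal nucleus held 3 UMIs.

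In neuronal clusters, 2517 of 6118 WT nuclei (41.1%, 39.9 to 42.4) and 2557 of 5393 HET nuclei (47.4%, 46.1 to 48.8) held a UMI of any of the 3 genes. After thinning, the shares were 8.55% and 10.6%, against 5.26% and 5.35% of agreed non-neuronal nuclei. Of the 5074 neuronal nuclei with any of the genes in both libraries, 4584 (90.3%) held 1 gene, 485 held a pair and 5 held all 3. Among agreed non-neuronal nuclei, which should lack the genes, 815 of 839 (97.1%) held 1 gene. Sparse detection alone leaves most nuclei with 1 gene, so these shares cannot show how many transporters a neuron uses.

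Slc17a7 nuclei held Slc17a6 about as often as other neurons did, or somewhat more often. In WT, 72 of 179 nuclei with Slc17a7 (40.2%, 33 to 47.8) also held Slc17a6, against 38.1% of neuronal nuclei without Slc17a7. In HET, it was 302 of 617 (48.9%, 44.9 to 53.0) against 39.3%. Nuclei with Slc17a7 were also deeper, with median totals of 11396 against 7634 UMIs in WT and 9950 against 8287 UMIs in HET. At 1000 UMIs per nucleus, the shares were 6.54% against 7.74% in WT and 7.85% against 8.17% in HET. Over both libraries the thinned share was 7.56% (3.94 to 12.9), from an expected 11.8 of 155 nuclei with Slc17a7. These are too few to tell whether Slc17a6 was more or less frequent at equal depth. Thinning also dilutes a background that is fixed per droplet more in deeper nuclei.

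The pooled share covers subclusters that differ. In subcluster 11, 40 of 114 WT nuclei and 154 of 340 HET nuclei held both genes. A further 55 WT and 98 HET nuclei held Slc17a7 only, 14 and 44 held Slc17a6 only, and 5 and 44 held neither. In subcluster 27, 52 of 100 HET nuclei held both, 15 held Slc17a7 only, 21 held Slc17a6 only and 12 held neither. In subcluster 15, the subcluster with the granule cell markers, 17 of 249 HET nuclei held both and 86 held Slc17a7 only, and 2 of 33 WT nuclei held both and 15 held Slc17a7 only. Its share of nuclei with Slc17a6 after thinning, 4.40% in WT and 5.03% in HET, was close to the 4.96% and 4.28% of non-neuronal nuclei. Its level was 38.0 CPM in WT, from 5 UMIs, and 53.4 CPM in HET, against 44.2 and 40.1 CPM in those nuclei. How much of it is background was not tested. Subcluster 18 held mostly Slc17a6, with 13 of 76 WT and 22 of 109 HET nuclei holding both genes and 34 and 58 holding Slc17a6 only. Among the subclusters described here, nuclei with both genes were most frequent in subclusters 11 and 27. Subcluster 18 is in cluster micro and so lies outside the pooled share. Within subcluster 11 the shares were ordered differently in the libraries. Slc17a6 was found in 42.1% of WT nuclei with Slc17a7 against 73.7% of those without, and in 61.1% against 50.0% in HET, with overlapping intervals in each library.

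**Figure D3:**
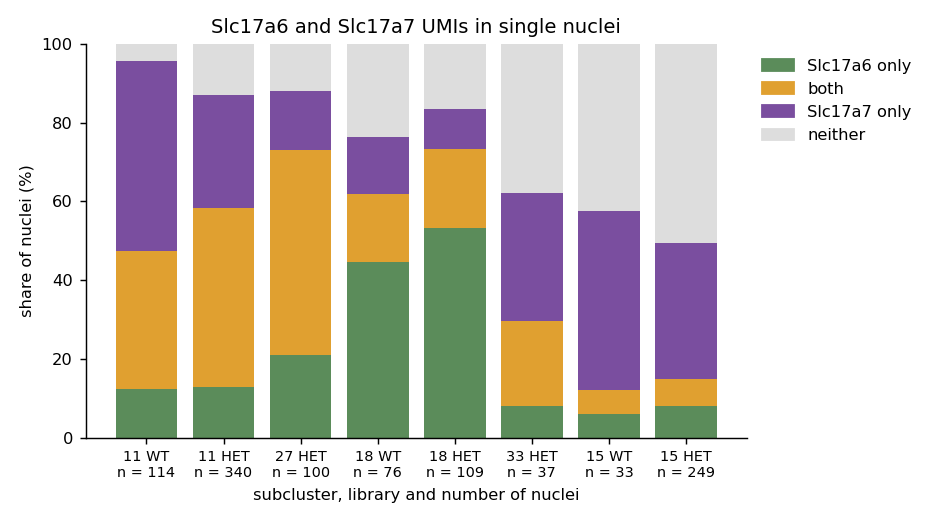
Share of nuclei in percent (stacked bars) with Slc17a6 only, with both Slc17a6 and Slc17a7, with Slc17a7 only and with neither, in 5 subclusters and by library where at least 30 nuclei were present. Nuclei with both genes are most frequent in subclusters 11 and 27, and subcluster 15 holds nuclei with Slc17a7 only.

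Slc17a8 was found with Slc17a6 in 67 of 144 nuclei in WT (46.5%, 38.2 to 55.0), against 37.9% of neuronal nuclei without Slc17a8. In HET, it was 49 of 114 (43.0%, 33.7 to 52.6) against 40.4%. Nuclei with Slc17a8 were deeper in WT, with a median of 11660 against 7642 UMIs. At 1000 UMIs per nucleus the shares were 7.86% against 7.73% in WT and 8.06% against 8.16% in HET. Slc17a7 was found in 2 of the 144 WT and 8 of the 114 HET nuclei with Slc17a8. Tph2 or Slc6a4 was found in 7.64% of Slc17a8 nuclei in WT and 10.5% in HET, against 1.93% and 1.72% of the other neuronal nuclei. In neuron.7, where each of the 79 nuclei held a UMI of Tph2 or Slc6a4, 14 held Slc17a8 and 4 of these also held Slc17a6.

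Inhibitory markers were less often found in nuclei with Slc17a6 or Slc17a7 than in other neurons, and for Slc17a8 the shares lay closer. At least 1 UMI of Slc32a1, Gad1, Gad2 or Slc6a5 was found in 39.3% of Slc17a6 nuclei in WT and 32.2% in HET, against 71.9% and 69.0% of neuronal nuclei without Slc17a6. After thinning, these shares were 8.55% and 6.62% against 21.6% and 17.7%. In agreed non-neuronal nuclei the thinned share was 8.98% and 7.03%, above that of Slc17a6 nuclei. Without thinning it was 22.6% and 19.3%, below the 39.3% and 32.2% of Slc17a6 nuclei, at lower depth. Thinning dilutes a background that is fixed per droplet more in deeper nuclei, so these shares cannot place Slc17a6 nuclei at background. Counting only 3 or more UMIs on both sides, 5.12% of Slc17a6 nuclei in WT and 2.74% in HET held inhibitory markers, against 34.9% and 32.4% of the others. Of the agreed non-neuronal nuclei, 0.511% and 0.251% held 3 or more inhibitory UMIs, at their lower depth. For Slc17a7 the shares at 3 or more UMIs were 5.36% and 1.77% against 32.6% and 29.8%. For Slc17a8 they were 22.2% (2.81 to 60.0) and 35.0% (15.4 to 59.2) against 32.4% and 29.1%, on 9 WT and 20 HET nuclei, which is too few to separate them. At 1 UMI, 54.2% (45.7 to 62.5) of Slc17a8 nuclei in WT and 43.9% (34.6 to 53.5) in HET held an inhibitory marker, against 59.6% and 54.3%.

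**Figure D4:**
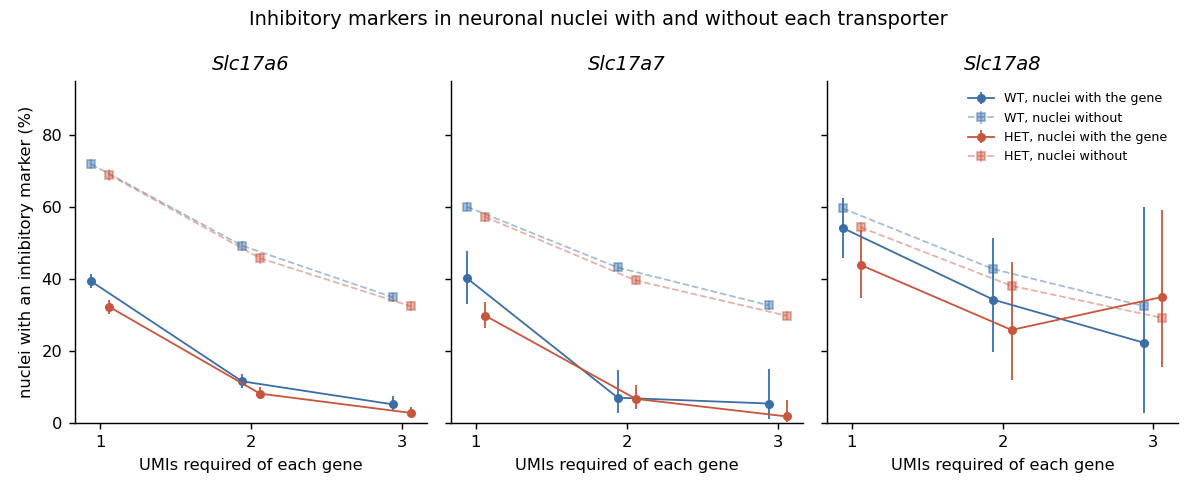
Share of neuronal nuclei in percent (vertical axis) that hold inhibitory marker UMIs, among nuclei with and without each transporter gene, at minimum counts of 1, 2 and 3 UMIs (horizontal axis) in WT and HET. The shares with Slc17a6 or Slc17a7 lie far below those without at each minimum, and those for Slc17a8 lie closer together.

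Between the genotypes, Slc17a7 differed most. Over all nuclei, Slc17a6 was at 69.7 CPM in WT and 77.3 CPM in HET, a log2 ratio of HET over WT of 0.15 (0.09 to 0.20). Slc17a7 was at 6.81 and 18.9 CPM, a log2 ratio of 1.47 (1.32 to 1.63), and Slc17a8 at 2.90 and 2.99 CPM, a log2 ratio of 0.04 (-0.25 to 0.33). Slc17a7 was the 1 member past 2-fold, in the higher direction, where 5.1% of the 21997 genes with at least 20 UMIs were past 2-fold higher in HET and 4.94% past 2-fold lower. Among the 16347 genes with at least 200 UMIs, 141 (0.863%) had a higher ratio. In neuronal clusters the log2 ratios were 0.18 (0.12 to 0.24) for Slc17a6, 1.55 (1.39 to 1.72) for Slc17a7 and 0.09 (-0.21 to 0.38) for Slc17a8. There, 5.3% of genes were past 2-fold higher and 4.21% past 2-fold lower.

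A sum over a library cannot tell more nuclei with a gene from more UMIs per nucleus, so both were measured. Subclusters 11, 15, 27 and 33 made up 167 of 6118 neuronal nuclei in WT (2.73%, 2.34 to 3.17) and 726 of 5393 in HET (13.5%, 12.6 to 14.4). With the same weight for each subcluster in both libraries, over the 14 neuronal subclusters that reached 30 nuclei in both, the neuronal level of Slc17a7 was 13.1 CPM in WT and 13 CPM in HET, a log2 ratio of -0.02. The 14 subclusters held 96.9% of neuronal nuclei and include 11 and 15. Subclusters 27 and 33, which hold 119 and 30 of the 1089 neuronal UMIs of Slc17a7 in HET, had too few WT nuclei and were left out. The -0.02 is a net of subclusters that went opposite ways. Of 28 subclusters over all nuclei, Slc17a7 was higher in HET beyond counting error in 9 and within it in 18. It was lower in 1, subcluster 11, at -0.42 from 311 WT and 589 HET UMIs. For Slc17a6 the log2 ratio at equal weights was 0.14. With 1 dissection per genotype, a difference in how the tissue was cut cannot be told apart from one between genotypes. The 6 listed granule cell markers were all higher in HET over all nuclei, with log2 ratios of 2.96 for Gabra6, 2.75 for Fat2, 2.48 for Cbln3, 0.76 for Neurod1, 0.46 for Etv1 and 0.30 for Cbln1.

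Within the clusters, the direction of Slc17a7 was not the same everywhere. Of the 12 clusters that reached 30 nuclei in both libraries, 4 were higher in HET beyond counting error, 1 was lower and 7 were within it. Neuron.4 was the lower one, at 154 CPM (137 to 172) in WT and 114 CPM (105 to 124) in HET, a log2 ratio of -0.43 (-0.63 to -0.22). Nuclei with the gene held 3.27 UMIs of it in WT and 2.34 in HET in subcluster 11, and 83.3% of its WT and 74.1% of its HET nuclei held the gene. Neuron.5, by contrast, was at 172 and 164 CPM, a log2 ratio of -0.06. The 4 clusters that were higher were neuron.1 (log2 ratio 1.48, 1.04 to 1.94), neuron.2 (2.08, 0.61 to 3.75), neuron.3 (3.96, 2.57 to 5.86) and oligo (1.85, 1.09 to 2.70). In neuron.3, 119 of the 134 HET UMIs lay in subcluster 27, with 14 WT and 100 HET nuclei. Past 2-fold, Slc17a7 was the 1 higher member in neuron.1, where 4.8% of genes were past 2-fold higher and 4.1% lower, and in oligo, where 4.53% were higher and 3.67% lower. It was also past 2-fold higher in neuron.2, from 6 WT and 14 HET UMIs, and in neuron.3, from 4 and 134. The share over all genes was not counted in those 2 clusters. No member with at least 20 UMIs was past 2-fold in neuron.4, with 4.83% of genes higher and 4.64% lower, or in neuron.5, with 11% higher and 6.97% lower. Neuron.1, neuron.2 and oligo held at most 0.0509 UMIs of the gene per nucleus. Agreed non-neuronal nuclei held 0.00903 in WT and 0.0332 in HET. In neuron.1 and neuron.2 the thinned shares were under those of agreed non-neuronal nuclei, most of which are in oligo. Of the 6 listed granule cell genes, 4 were higher in HET beyond counting error in agreed oligodendrocytes, with log2 ratios of 2.86 for Gabra6, 2.78 for Fat2, 1.23 for Cbln3 and 1.21 for Neurod1. Cbln1 was within it, at 0.36 (-0.33 to 1.07), and Etv1 was lower, at -0.26 (-0.44 to -0.07). The part of free RNA in these ratios was not tested.

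**Figure D5:**
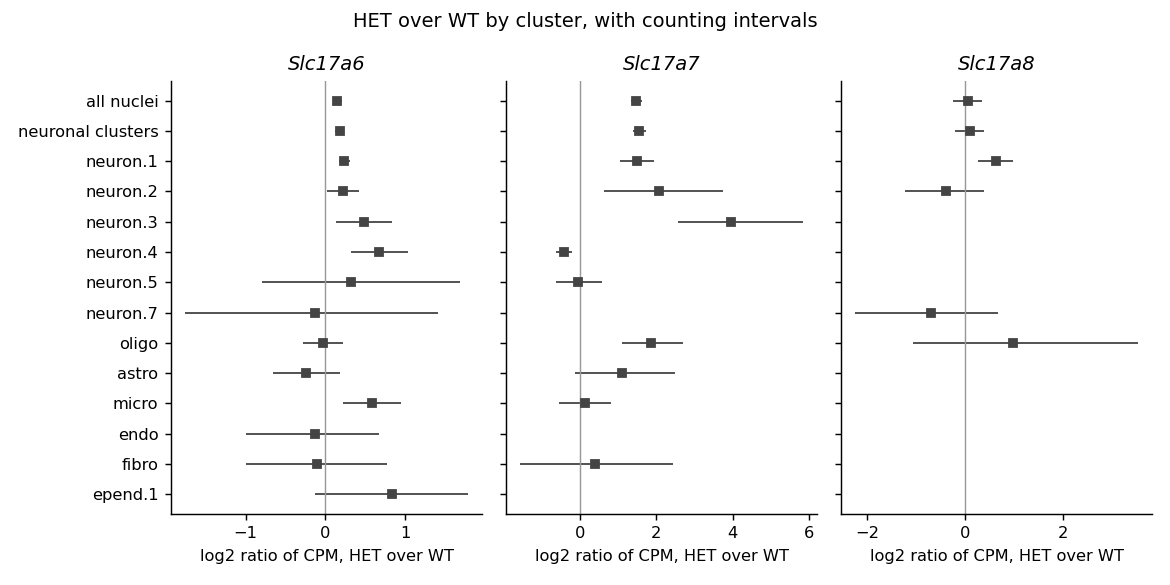
Log2 ratio of CPM, HET over WT (horizontal axis), of each gene in each deposited cluster with enough UMIs of that gene (vertical axis), with exact 95% intervals that cover counting error only. Slc17a7 is higher in HET in neuron.1, neuron.2, neuron.3 and oligo and lower in neuron.4, and Slc17a6 lies at or above 0 in most neuronal clusters.

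Slc17a6 was higher in HET beyond counting error in 5 of 12 clusters, lower in 0 and within it in 7. The 5 were neuron.1 (0.24, 0.17 to 0.31), neuron.2 (0.22, 0.02 to 0.42), neuron.3 (0.48, 0.14 to 0.84), neuron.4 (0.67, 0.32 to 1.03) and micro (0.58, 0.23 to 0.95). None of them was past 2-fold. In oligo the log2 ratio was -0.03, so the level of the gene in that cluster was alike in both libraries. In neuron.1, where subcluster 0 took a larger share of HET nuclei, equal subcluster weights gave 75.4 CPM in WT and 81.3 CPM in HET, a log2 ratio of 0.11 in place of 0.24. Of 28 subclusters, 4 were higher in HET beyond counting error, 1 was lower and 23 were within it. The 4 were subclusters 1 (0.43), 5 (0.29), 11 (0.68) and 18 (0.59). The lower one was subcluster 8, of the oligo cluster, with 111 UMIs in WT and 0 in 35 HET nuclei. In neuron.4 the ratio of the transporters thus differed between libraries in both directions at once, with Slc17a7 lower and Slc17a6 higher in HET.

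Slc17a8 was higher in HET beyond counting error in neuron.1 alone of the 12 clusters, at 2.46 and 3.79 CPM (log2 ratio 0.62, 0.27 to 0.98). Within it, subcluster 0 was at 3.72 and 6.27 CPM (0.75, 0.20 to 1.33). The nuclei behind this were few. In neuron.1, 93 of 5032 WT nuclei (1.85%) and 88 of 4079 HET nuclei (2.16%) held the gene, and nuclei with at least 3 UMIs, 4 in WT and 20 in HET, held 12.6% and 51.9% of its UMIs. In subcluster 0, 3 WT and 13 HET nuclei held 29.3% and 64.4%. In neuron.2 and neuron.7 the log2 ratios were -0.41 (-1.24 to 0.37) and -0.71 (-2.25 to 0.67), which the counts cannot separate from 0. Subclusters 14 and 30, which had the highest levels, made up 4.69% of neuronal nuclei in WT and 3.13% in HET and held 29.9% and 13.5% of the neuronal Slc17a8 UMIs.

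A list of 30 genes covered glutamate supply and uptake in neurons, the astrocyte side of the cycle, other SLC17 members, the proton and ion supply of vesicles, and vesicle proteins. In neuronal clusters, 0 of the 29 with at least 20 UMIs were past 2-fold higher in HET and 2 were past 2-fold lower, with a median log2 ratio of -0.11 beside -0.08 for all genes. These counts are near the 5.3% higher and 4.21% lower over all genes. The 2 were Slc38a2, a glutamine transporter, at 235 and 112 CPM (-1.07), and Slc38a5, another, at 0.390 and 0.189 CPM with an interval that holds 0. By group, the median was -0.09 over 10 supply and uptake genes, -0.18 over 5 genes of the astrocyte side (0.21 over all nuclei), -0.14 over 6 proton and ion supply genes and 0.04 over 6 vesicle protein genes. Sv2b, a synaptic vesicle glycoprotein found in glutamatergic terminals, was at 104 and 143 CPM (0.46), and Syp, synaptophysin, at 85.1 and 98.6 CPM (0.21). Slc1a3, a glial glutamate transporter, was at 3.64 and 6.68 CPM (0.88, 0.63 to 1.13). Of the other SLC17 genes over all nuclei, Slc17a5, the lysosomal sialic acid transporter, held 2809 and 2548 UMIs, and Slc17a9, the vesicular nucleotide transporter, 179 and 125 UMIs (-0.43, -0.77 to -0.09). Slc17a1 and Slc17a2 held at most 4 UMIs in a library. Slc32a1, the vesicular transporter of GABA and glycine, was at 41.5 CPM in WT and 24.5 CPM in HET over all nuclei (-0.76).

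The genes most like each transporter were found by the Pearson correlation of log2(CPM + 10) over the 34 subclusters, among 16347 genes with at least 200 UMIs. The subclusters share 2 libraries and were made from these counts, so the coefficients are a description. For Slc17a6 the 5 genes were Nrn1 (r = 0.871), Inhba (0.655), Cep112 (0.647), Bdnf (0.636) and Ano5 (0.616). Nrn1 codes for neuritin, an activity-regulated surface protein of excitatory neurons, and Bdnf for a neurotrophin. Ano5 lies at chr7:51511029-51598709, upstream of Slc17a6 with a gap of 23297 bases and no coding gene between. For Slc17a7 they were Ccdc155 (0.847), Neurod2 (0.845), Fat2 (0.843), 1700120C18Rik (0.810) and Il16 (0.773). Ccdc155 lies 7482 bases from the end of Slc17a7 on the opposite strand, with 2 coding genes between. For Slc17a8 they were Gm27226 (0.787), Htr1b (0.748), D430036J16Rik (0.747), Gm26713 (0.723) and Gm26907 (0.715), where Htr1b codes for a serotonin receptor. All 5 lie within chr9:80955436-81858891, and D430036J16Rik overlaps Htr1b on the opposite strand, so they are neighbours and not separate matches. Tph2 ranked eighth for Slc17a8, with r = 0.661. Between the members, r was 0.31 for Slc17a6 and Slc17a7, 0.17 for Slc17a6 and Slc17a8, and -0.25 for Slc17a7 and Slc17a8.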

How the data were processed

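Nuclei from flash-frozen brainstem of 1 WT and 1 HET mouse were profiled with 10x Chromium 3′ v3.1 chemistry. The counts are raw UMIs per gene and nucleus, deposited by the authors after Cell Ranger (version not given in the sources used here) on mm10 and filtering in Seurat 4.1, which kept nuclei with at least 1000 genes and at most 15% mitochondrial UMIs. The percent values of mitochondrial UMIs were deposited by the authors. The doublet score was deposited by the authors from a caller that is not named, and called doublets had been removed before. Clusters, subclusters and reference labels were used as deposited, so a cluster against the rest is no test. Clustering and alignment were not repeated.

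UMIs were summed per library and cluster and given as CPM of all UMIs of that unit. Intervals are exact Poisson for CPM, conditional binomial for ratios and Clopper-Pearson for shares. A count of 0 allows up to 3 counts, a tighter limit than the upper end of the exact interval. Thinned shares are the expected share with a UMI in 1000 UMIs drawn from each nucleus, and no nucleus used was shallower. Clusters were compared from 30 nuclei in each library. Agreed non-neuronal nuclei are those whose cluster and reference label name the same non-neuronal type. Genes were counted as past 2-fold from 20 UMIs, and over all nuclei the median gene of 200 UMIs or more had a log2 ratio of -0.10. The 3 members, the gene lists and the comparisons were chosen with earlier results of these data known. Genes named are the members, 30 genes of the glutamate cycle, markers of cell types, and the 5 genes most like each member by correlation over subclusters. Gene positions are those of GENCODE vM21 and promoters those of RefSeq on GRCm38.p6. The alternatives were other scalings, depth and doublet score minimums, cluster weights, left-out clusters and a minimum of 2 UMIs, and 2 more, neurons by reference label and subtraction of the non-neuronal level, were chosen after seeing the data. The scripts were tested on simulated data. Scripts ran in Python 3.11.15 with scipy 1.17.1, pandas 2.3.3, numpy 2.4.6 and matplotlib 3.10.9.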

Additional observations from a re-analysis of the deposited data

Results flagged for a closer look

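The log2 ratio of Slc17a7, HET over WT, went opposite ways in clusters beyond counting error. It was -0.43 in neuron.4, lower in HET, and higher in HET at 1.48 in neuron.1, 2.08 in neuron.2, 3.96 in neuron.3 and 1.85 in oligo. With 1 library per genotype the difference between clusters was not tested. In neuron.1 and neuron.2 the gene was less frequent, at equal depth, than in agreed non-neuronal nuclei, most of which are in oligo. Thinned shares cannot place these clusters at background. In neuron.3 the HET UMIs lay mostly in subcluster 27, with 14 WT nuclei.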

How the results depend on the processing

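No paired analysis was possible because each genotype has 1 library. Of 90 alternative values for 11 results, 61 moved by less than counting error, 28 moved by more and 1 changed sign. Scaling the median log2 ratio to 0 gave Slc17a6 0.25 over all nuclei and 0.27 in neuronal clusters. The mean over nuclei of CPM gave 0.00443 and 0.0929 for Slc17a6 and 1.87 and 2.06 for Slc17a7. Equal cluster weights gave 0.24 and 0.26 for Slc17a6, 0.23 and 0.115 for Slc17a7, and 0.34 for Slc17a8 over all nuclei. Equal subcluster weights gave Slc17a7 0.10 over all nuclei and -0.0187, a changed sign, in neuronal clusters. Without neuron.5, Slc17a7 gave 1.32 and 1.37, and without the 5 clusters drawn 4 to 1 or more from 1 library 1.27 and 1.32. Subtracting the non-neuronal level gave Slc17a6 0.25 in neuronal clusters. With a minimum of 2 UMIs, the share of neuronal nuclei with any member was 19.0% in WT and 24.4% in HET, that of Slc17a7 nuclei with Slc17a6 28.1%, of Slc17a8 nuclei with Slc17a6 18.8%, and of Slc17a6 nuclei with an inhibitory marker 9.78%. Thinned, these were 8.55%, 10.6%, 7.56%, 7.96% and 7.62%. Without neuron.5, 53.5% of Slc17a7 nuclei held Slc17a6. The single library per genotype leaves the spread between animals unknown, and the counting intervals do not cover it.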
